A study of Solanum pimpinellifolium with 72 samples.

Results

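Floral buds of RNAi-SlCLV3 plants were compared with wild type (WT) buds at 6 days post floral initiation (6dpi), with 4 whole mRNA libraries in each group. The comparison took in every gene that reached 1 RPKM in at least 4 of the 72 libraries of the series, 20577 of the 34727 genes in the deposited table. RPKM is the number of reads per kilobase of transcript and per M mapped reads (M is 1e6), a level that allows for gene length and depth. RNAi-SlCLV3 plants carried a hairpin built from a fragment of SlCLV3 behind a viral promoter that is active in most tissues, and which of the hairpin lines gave these libraries was not stated. The hairpin was put into accession LA1589 of Solanum pimpinellifolium, a wild relative of tomato. Whether the WT libraries came from LA1589 itself or from a wild type sibling of the backcrossed lc and fas lines was not stated. Whether WT and the hairpin plants differ at other loci was not tested. The other genotypes of the series, used here only for reference, were lc (a pair of base changes downstream of SlWUS), fas (an inversion that disrupts the SlCLV3 promoter), lc/fas with both, and HC2, a fas line transformed with a genomic copy of SlCLV3. All were also sampled at 4dpi and at an early stage that joined floral and inflorescence meristems with 2dpi buds. Each replicate pooled buds dissected from many inflorescences of several greenhouse plants that were collected over weeks, so the p-values measure the spread between such collections, which may share plants.

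The CLAVATA-WUSCHEL loop sets the size of plant meristems. WUSCHEL, a homeodomain transcription factor made below the stem cells, maintains them, and the secreted CLAVATA3 peptide made by the stem cells acts through receptor kinases to hold WUSCHEL back. In flowers WUSCHEL is normally shut down as the carpels form, which ends the supply of new cells to the meristem. In tomato, weaker SlCLV3 activity or prolonged SlWUS activity gives wider floral meristems and flowers and fruits with more organs and locules.

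The 8 libraries held 5.15 to 34.4 M reads in genes in RNAi-SlCLV3 and 15.6 to 19.3 M in WT, within the 2.93 to 58.6 M (median 19.2 M) of all 72 libraries. RNAi-SlCLV3 replicate 3 was the thinnest of the 8. Markers of the bud organs were present in both genotypes. The summed level of 4 petal and stamen genes (TAP3, TM6, SlGLO1, TPIB) ran from 815 to 1145 RPKM in RNAi-SlCLV3 and from 935 to 1347 RPKM in WT, and that of the carpel genes CRCa and CRCb from 87.8 to 161 RPKM in RNAi-SlCLV3 and from 95.1 to 136 RPKM in WT. Markers of later organs were near 0. The 3 ovule genes together reached at most 0.675 RPKM in RNAi-SlCLV3 and 0.203 RPKM in WT, with INO listed at 0 in all 8 libraries, and 3 anther and tapetum genes (MS10, AMS, MS32) at most 0.949 RPKM in RNAi-SlCLV3 and 0.733 RPKM in WT. The 11 photosynthesis genes summed to 3837 to 6083 RPKM in RNAi-SlCLV3 and 3960 to 6389 RPKM in WT, and none of the 20 tested markers of petal, stamen, carpel, sepal or photosynthetic tissue passed the limma test or had an unadjusted p below 0.05. Of the meristem markers, SlWUS and TKN2 were called higher and SlCLV3 was not, and the 3 had a summed level of 79.1 to 102 RPKM in RNAi-SlCLV3 and 46.3 to 57.9 RPKM in WT. In bulk buds, more meristem cells and more RNA per meristem cell cannot be told apart, and this applies to every gene below that is made mainly in meristems.

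At 6dpi the test called 257 genes (1.25% of those tested), 183 higher in RNAi-SlCLV3 (0.889%) and 74 lower (0.36%), by limma on log2(RPKM + 1) with Benjamini-Hochberg adjusted p below 0.05. Among the 183 higher genes, 75 rose by at least 1 on the log2 scale, and 17 of the 74 lower genes fell by as much. The 4 RNAi-SlCLV3 libraries lay wholly above the 4 WT libraries in 159 of the higher genes and wholly below them in 66 of the lower genes. Over all genes tested such separation was seen in 2.64% upward and 2.6% downward. Both group means were under 5 RPKM in 97 of the higher and 31 of the lower genes, against 4926 of the 20577 tested, so many of the called genes were weakly expressed and their change is understated on this scale. The 257 calls came from a fit without pairing. In an alternative fit the replicate numbers were taken to pair the libraries, which no source states. That fit, with the number kept as a block, called 464 genes (2.25%), 304 higher (1.48%) and 160 lower (0.778%). Leaving out 1 library gave 178 to 248 calls. The higher calls stayed between 140 and 192, but the lower calls fell to 30 without WT replicate 3, 46 without WT replicate 4 and 49 without the thin RNAi-SlCLV3 replicate 3.

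**Figure D1:**
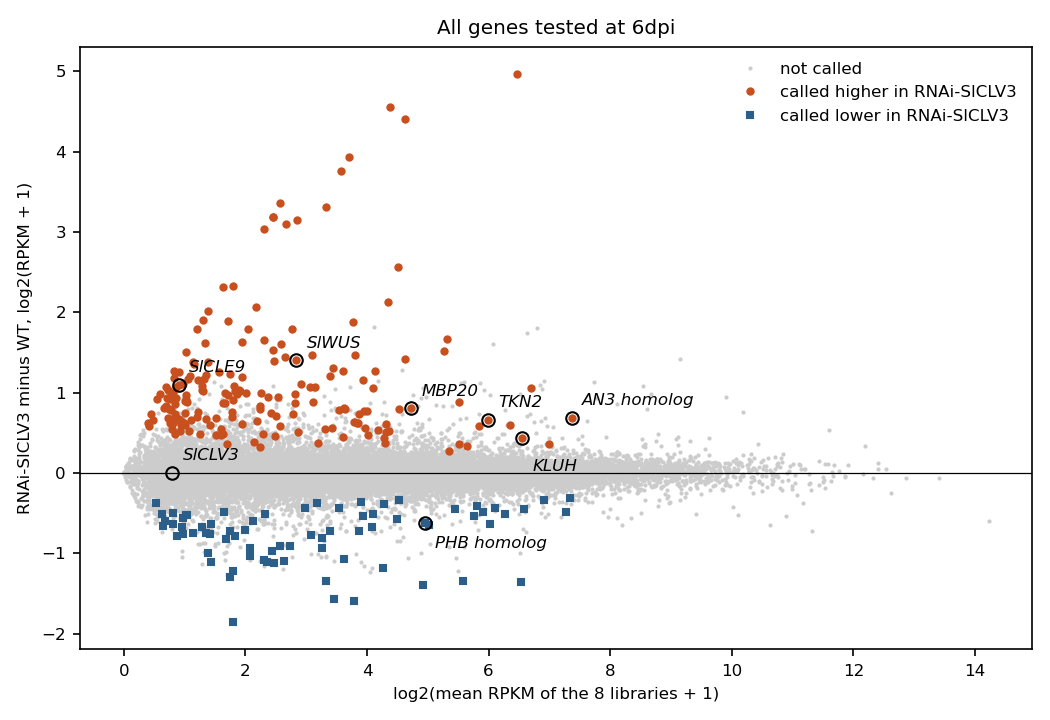
Each point is 1 of the 20577 genes tested at 6dpi, with the log2 mean level of the 8 libraries on the x axis and the RNAi-SlCLV3 minus WT difference of log2(RPKM + 1) on the y axis. The 183 genes called higher (orange circles) reach a log2 difference of 4.96, and the 74 called lower (blue squares) reach -1.85; rings mark genes named in the text.

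SlCLV3 (Solyc11g071380, on chromosome 11 by its identifier), the gene the hairpin targets, was barely detected in either genotype at this stage. It stood at 0.689, 1.70, 0.202 and 0.516 RPKM in RNAi-SlCLV3 replicates 1 to 4 and at 0.494, 0.917, 0.421 and 1.00 RPKM in WT. The groups overlapped completely, and behind the values lay 12, 32, 1 and 17 reads in RNAi-SlCLV3 and 9, 17, 7 and 15 in WT. The log2 difference was 0.01 (95% interval -0.46 to 0.48, adjusted p = 1), so a lower level of the target was not detectable at this depth. In the same fit SlCLV3 was called lower in RNAi-SlCLV3 at the early stage (log2 difference -0.78, SE 0.23, adjusted p = 0.036) but not at 4dpi (0.17, adjusted p = 0.75). Transcripts of the hairpin can add to the count of the gene, and the 2 sources were not separated.

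SlWUS (Solyc02g083950), the tomato WUSCHEL, was about 3 times as abundant in the hairpin buds. Its levels were 8.89, 9.94, 10.2 and 8.47 RPKM in RNAi-SlCLV3, against 2.62, 3.35, 3.11 and 2.61 RPKM in WT. The lowest RNAi-SlCLV3 library was therefore far above the highest WT library, and the ratio of means was 3.21 (log2 difference 1.41, SE 0.26, 95% interval 0.89 to 1.92). The reads behind these values numbered 53 to 292 in RNAi-SlCLV3 and 41 to 65 in WT. At the same stage SlWUS averaged 6.19 ± 1.02 RPKM in lc/fas, 4.21 ± 0.971 in fas, 4.02 ± 0.962 in lc and 2.51 ± 1.11 in HC2, against 2.92 ± 0.367 in WT (SD, n = 4 each), so RNAi-SlCLV3 at 9.39 ± 0.844 RPKM was the highest of the 6 genotypes. Its call held under each of the alternatives tried.

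The other members of the CLAVATA-WUSCHEL list divided between a CLE peptide gene that rose and receptors that did not differ. SlCLE9 (Solyc06g074060), a close relative of SlCLV3 that also encodes a CLE peptide, stood at 3.401, 1.14, 1.09 and 0.784 RPKM in RNAi-SlCLV3, against 0.177, 0.232, 0 and 0.144 RPKM in WT. Every RNAi-SlCLV3 library was above every WT library, yet the WT values came from 0 to 4 reads. The log2 difference was 1.10 (SE 0.23, adjusted p = 0.0019), and it did not pass without RNAi-SlCLV3 replicate 1 (0.82, adjusted p = 0.056) or when the 8 libraries alone were fitted (adjusted p = 0.15, or 0.079 with the replicate block). FAB (Solyc04g081590), the CLAVATA1 receptor kinase of tomato, was at 204 RPKM in RNAi-SlCLV3 and 186 RPKM in WT on average. SlCLV2, a receptor-like protein without a kinase domain, was at 11.4 RPKM in RNAi-SlCLV3 and 11.2 RPKM in WT, and FIN, which adds arabinose to CLE peptides, at 138 RPKM in both. The 5 members that were not called, FAB2 and SlCLV3 among them, had log2 differences of -0.04 to 0.12, and the list held 2 called of 7 beside 1.25% of all genes.

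**Figure D2:**
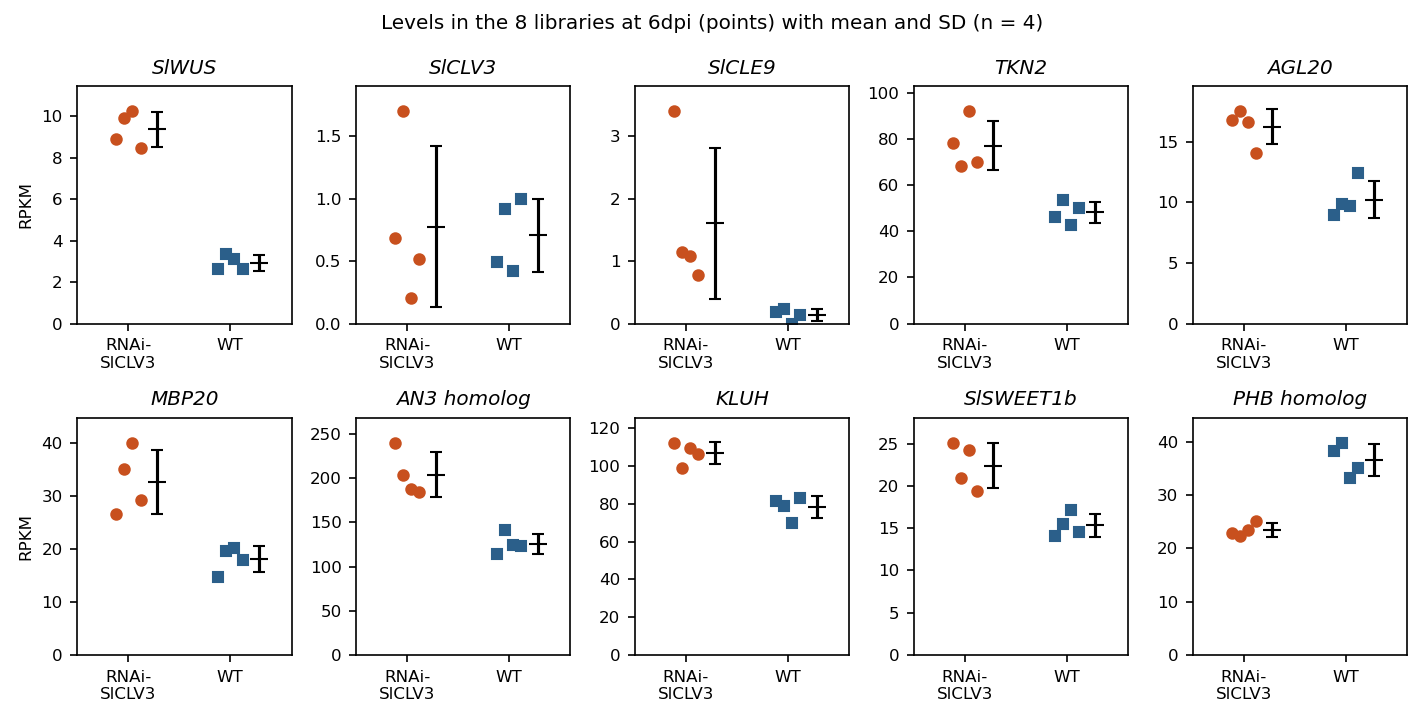
Points are the 4 RNAi-SlCLV3 (orange circles) and 4 WT (blue squares) libraries at 6dpi on a linear RPKM axis from 0, with the mean and SD (n = 4) in black. In SlWUS, TKN2, AGL20, MBP20, the AN3 homolog, KLUH and SlSWEET1b all RNAi-SlCLV3 libraries lie above all WT libraries, in the PHB homolog all lie below, and in SlCLV3 the groups overlap.

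In the meristem maintenance and boundary list TKN2 and AGL20 rose. TKN2 (Solyc02g081120), the tomato SHOOT MERISTEMLESS and a class I KNOTTED homeodomain factor, was at 78.2, 68.1, 91.9 and 70.1 RPKM in RNAi-SlCLV3, against 46.2, 53.7, 42.8 and 49.9 RPKM in WT. The groups did not overlap (log2 difference 0.66, SE 0.13, adjusted p = 0.00056), and the call was lost with the replicate block in the 8 libraries alone (adjusted p = 0.056). AGL20 (Solyc01g092950), a MADS-box gene of the SOC1 type that promotes flowering in Arabidopsis, was at 16.8, 17.5, 16.6 and 14.1 RPKM in RNAi-SlCLV3, against 8.95, 9.85, 9.74 and 12.4 RPKM in WT. The log2 difference was 0.62 (SE 0.15, adjusted p = 0.013), and it missed the threshold without RNAi-SlCLV3 replicate 2 (adjusted p = 0.063), WT replicate 1 (0.076) or WT replicate 3 (0.056), and with the block in the 8 libraries alone (0.069). A gene without annotation within 5 places of it in the order of the table, Solyc01g093980, also rose, with 0.805 to 1.83 RPKM in RNAi-SlCLV3 and 0.0443 to 0.291 RPKM in WT. The remaining 8 of 10 tested members of the meristem maintenance and boundary list were not called. Among them TKN1 and TKN4, the other KNOTTED genes, had log2 differences of 0.18 and -0.20, and the boundary genes LS, GOB and BL of -0.22, -0.34 and -0.21. The BOP2 homolog (Solyc04g040220), a boundary gene in Arabidopsis, stood at 5.73 RPKM in RNAi-SlCLV3 and 8.70 RPKM in WT. Its log2 difference of -0.55 did not pass (adjusted p = 0.14), but passed with the replicate block (adjusted p = 0.0073). The median over the list was -0.13, beside 0.00 over all genes tested.

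MADS-box genes of the FRUITFULL clade were split. MBP20 (Solyc02g089210) was at 26.6, 35.1, 40.03 and 29.2 RPKM in RNAi-SlCLV3, against 14.8, 19.6, 20.2 and 17.9 RPKM in WT, with no overlap (log2 difference 0.81, SE 0.17, adjusted p = 0.0023). Its relatives FUL1, FUL2 and MBP10, which act in flowering and fruit development, had log2 differences of -0.07, -0.15 and -0.55 and were not called. In the list of FRUITFULL-like and SOC1-type genes 2 of 5 were called higher, beside 0.889% of all genes tested, and the second of them is AGL20, described with the meristem genes. The call of MBP20 held under each alternative tried.

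Regulators of organ growth moved in both directions. The AN3 homolog (Solyc11g006230), whose Arabidopsis counterpart is a transcriptional coactivator that keeps leaf and petal cells dividing, was at 240, 203, 188 and 184 RPKM in RNAi-SlCLV3, against 114, 141, 124 and 123 RPKM in WT. The lowest RNAi-SlCLV3 value exceeded the highest WT value by a wide margin (log2 difference 0.69, SE 0.14, adjusted p = 0.0013). KLUH (Solyc03g114940), the cytochrome P450 behind a tomato fruit weight locus, was at 112, 98.8, 109 and 106 RPKM in RNAi-SlCLV3, against 81.6, 78.8, 69.99 and 82.9 RPKM in WT. It rose by 0.44 on the log2 scale (SE 0.09, adjusted p = 0.0023), a small change with little spread. The PHB homolog (Solyc02g024070), a class III HD-ZIP factor that sets the upper side of lateral organs in Arabidopsis, was at 22.8, 22.4, 23.4 and 25.2 RPKM in RNAi-SlCLV3, against 38.3, 39.8, 33.2 and 35.1 RPKM in WT. It fell by 0.62 on the log2 scale (SE 0.11, adjusted p = 0.00028), with every RNAi-SlCLV3 library below every WT library. A gene without annotation near it in the table, Solyc02g027080, was called the other way, at 2.67 ± 0.605 RPKM in RNAi-SlCLV3 and 1.83 ± 0.232 RPKM in WT with overlapping libraries (adjusted p = 0.046), a call lost without RNAi-SlCLV3 replicate 2 or 3 or WT replicate 1, 3 or 4 (adjusted p = 0.12 to 0.30). The calls of the AN3 homolog, KLUH and the PHB homolog held under each alternative tried. ANT, an AP2-type growth regulator, and the GRF5 homolog, whose Arabidopsis protein partners AN3, had log2 differences of 0.18 and 0.04 and were not called. Nor were OVATE, SUN, FW2.2 and OFP20 among the fruit size and shape genes (-0.10, -0.02, 0.18 and -0.41).

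In 3 of these genes RNAi-SlCLV3 stood at the end of the range of the 6 genotypes at 6dpi. The AN3 homolog averaged 204 ± 25.3 RPKM in RNAi-SlCLV3, 158 ± 30.2 in lc/fas, 132 ± 16.0 in lc, 130 ± 10.9 in fas and 129 ± 16.6 in HC2, against 126 ± 11.2 in WT (SD, n = 4 each). TKN2 averaged 77.1 ± 10.8 RPKM in RNAi-SlCLV3, 59.1 ± 8.94 in lc/fas, 50.5 ± 3.63 in lc, 44.4 ± 1.74 in fas and 41.5 ± 6.75 in HC2, against 48.1 ± 4.71 in WT. The PHB homolog averaged 23.5 ± 1.26 RPKM in RNAi-SlCLV3 and 36.6 to 40.5 RPKM in the 5 other genotypes. The SD ranges of RNAi-SlCLV3 and WT did not meet in any of the 3, while those of lc and of fas each met that of WT. The SD range of lc/fas met that of WT in all 3 and that of RNAi-SlCLV3 in TKN2 and the AN3 homolog.

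Most of the developmental genes examined were not called at 6dpi. None of the 12 tested floral organ MADS-box genes passed, with log2 differences of -0.34 to 0.20. TAG1, the tomato AGAMOUS that specifies stamens and carpels, stood at 132 RPKM in RNAi-SlCLV3 and 115 RPKM in WT (log2 difference 0.20, adjusted p = 1). The 8 tested YABBY genes, which pattern lateral organs, ran from -0.33 to 0.26 with a median of -0.28, and 5 of the 8 were below 0. SlYABBY2b, the gene once thought to underlie fas, was at 93.6 RPKM in RNAi-SlCLV3 and 113 RPKM in WT. The 6 tested PIN auxin efflux carriers (-0.22 to 0.22), the 15 auxin response factors (-0.14 to 0.09), the 5 sterol biosynthesis genes (-0.22 to 0.05) and the 7 kinesin and cytokinesis genes (-0.23 to 0.02) also held no called member. The 4 tested gibberellin biosynthesis genes were all slightly below 0 (-0.38 to -0.07, lowest adjusted p = 0.42). By the unadjusted limma p, none of the floral organ genes, auxin response factors or sterol genes and 1 gene each of the YABBY, PIN, gibberellin and kinesin lists was below 0.05, beside 7.57% of all genes tested. Among the 7 inflorescence and flower identity genes none passed, although 4 were below 0.05 by the unadjusted limma p, and with the replicate block J (Solyc11g010570), the JOINTLESS MADS-box gene of the pedicel joint, passed as higher (49.7 RPKM in RNAi-SlCLV3, 33.3 RPKM in WT, adjusted p = 0.040) and the SPL15 homolog as lower (15.1 RPKM in RNAi-SlCLV3, 22.3 RPKM in WT, adjusted p = 0.022). Of the 9 genes taken from those that the text of the study names for a genotype by development pattern, SlWUS and the sugar transporter SlSWEET1b were called. SlSWEET1b was at 25.1, 20.99, 24.2 and 19.4 RPKM in RNAi-SlCLV3, against 14.1, 15.5, 17.1 and 14.6 RPKM in WT (log2 difference 0.52, SE 0.13, adjusted p = 0.026). Its groups did not overlap, but the call was lost without RNAi-SlCLV3 replicate 1 or 3 (adjusted p = 0.13 and 0.11) or WT replicate 1, 2 or 4 (0.10, 0.054 and 0.091), or with the 8 libraries alone (0.075).

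**Figure D3:**
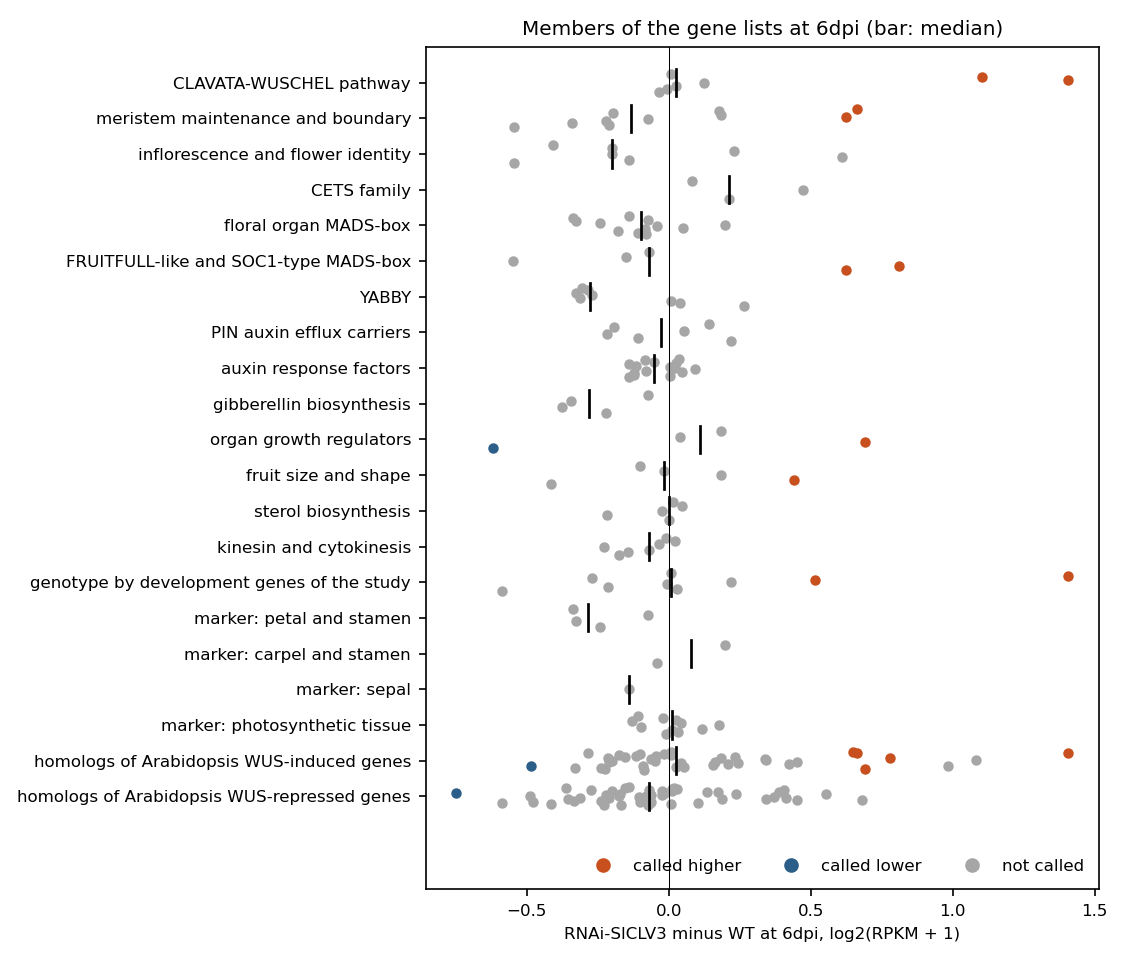
Each point is a tested member of a gene list, placed by its RNAi-SlCLV3 minus WT difference of log2(RPKM + 1) at 6dpi, with the list median as a black bar and called genes in colour. Called members (orange higher, blue lower) stand in the CLAVATA-WUSCHEL, meristem, FRUITFULL-like, organ growth, fruit size, genotype by development and WUS lists, and the floral organ, YABBY, PIN, auxin response factor, gibberellin, sterol and kinesin lists hold grey points only.

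Homologs of genes that respond to WUS in Arabidopsis were examined next, as a list the study drew from genes that differed in its separate 3′ tag libraries of WT, lc, fas and lc/fas and not as all such homologs. Of the 41 tested homologs of WUS-induced genes, 5 rose and 1 fell, and of the 50 tested homologs of WUS-repressed genes none rose and 1 fell, beside 0.889% higher and 0.36% lower of all genes tested. The medians were 0.03 and -0.07, close to the 0.00 of all genes. The clusters into which the study divided its differing genes held from 1.33% (cluster 5) to 11.5% (cluster 3) called either way. The WUS-induced list held 14.6%, with SlWUS itself among its members, and the WUS-repressed list 2.0%. The 5 that rose were SlWUS itself, TKN2, the AN3 homolog, the OBP1 homolog (Solyc04g079570) and an F-box gene (Solyc01g099970). The OBP1 homolog, a Dof zinc finger factor that speeds the cell cycle in Arabidopsis, was at 22.99, 16.5, 16.0 and 21.2 RPKM in RNAi-SlCLV3, against 12.4, 12.2, 10.2 and 8.28 RPKM in WT. Its groups did not overlap (log2 difference 0.78, SE 0.20, adjusted p = 0.024), but the call was lost without RNAi-SlCLV3 replicate 1 (adjusted p = 0.13) or 4 (0.11) and without WT replicate 3 (0.084) or 4 (0.16), and in the 8 libraries alone (0.077, or 0.054 with the block). The F-box gene, named after its values were seen, averaged 4.61 ± 0.692 RPKM in RNAi-SlCLV3 and 2.58 ± 0.475 RPKM in WT (adjusted p = 0.0011). The member that fell was the LTP2 homolog (Solyc09g018010), which encodes a lipid transfer protein of the epidermis and cuticle. It was at 56.7, 44.0, 46.6 and 49.4 RPKM in RNAi-SlCLV3, against 68.9, 58.3, 66.3 and 85.0 RPKM in WT, so the groups were separated by a narrow gap. The log2 difference was -0.49 (SE 0.12, adjusted p = 0.024), and the call was lost without WT replicate 1 (adjusted p = 0.059) or 4 (0.22) or RNAi-SlCLV3 replicate 2 (0.13), 3 (0.087) or 4 (0.055). The WUS-repressed homolog that fell, a dynein light chain gene (Solyc03g120690, named after its values were seen), had overlapping libraries.

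Genes with an annotation outside these lists were named by the size of their change. Of the 133 annotated genes that the study called in RNAi-SlCLV3, out of those that differed in its 3′ tag libraries of WT, lc, fas and lc/fas, a list chosen on these samples and so no independent evidence, 26 were called higher and 9 lower among 131 tested. These were 26.7% of the 131, beside 1.25% of all genes tested. A long-chain acyl-CoA synthetase gene, the LACS4 homolog (Solyc08g008310), which activates fatty acids, was at 22.6, 27.3, 21.3 and 24.2 RPKM in RNAi-SlCLV3, against 8.40, 9.66, 10.5 and 8.49 RPKM in WT. It rose 2.57-fold by the ratio of means (log2 difference 1.27, SE 0.15, adjusted p = 9.6e-09). In HC2 it was at 33.9 ± 2.43 RPKM, against 9.498 ± 0.951 RPKM in fas, so it was also high in the other transgenic line. The GAD homolog (Solyc11g011920), a glutamate decarboxylase that makes GABA, was at 14.6, 21.6, 17.3 and 20.4 RPKM in RNAi-SlCLV3, against 10.2, 8.77, 10.9 and 11.5 RPKM in WT (log2 difference 0.77, SE 0.17, adjusted p = 0.0056). Its groups did not overlap, and HC2 did not differ from fas in it (log2 difference -0.11, adjusted p = 1). A gene annotated as aleurone layer morphogenesis protein (Solyc03g121850) rose by 1.44 (8.16 ± 1.67 RPKM in RNAi-SlCLV3, 2.35 ± 0.397 RPKM in WT, adjusted p = 5.1e-13). It was also called higher in HC2 than in fas at 6dpi (log2 difference 1.56, adjusted p = 2.3e-14). Solyc06g054640, of a plant-specific family with no known role given, was at 3.13, 1.64, 1.597 and 1.63 RPKM in RNAi-SlCLV3, against 0.315, 0.194, 0.216 and 0.383 RPKM in WT. Replicate 1 stood well above its 3 fellows there, and the groups were apart without it.

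Among the annotated genes that fell, the largest change was in a terpene synthase gene, the TPS18 homolog (Solyc06g059930), which was at 51.8, 42.5, 52.3 and 53.3 RPKM in RNAi-SlCLV3, against 117, 92.4, 183 and 138 RPKM in WT. The hairpin libraries were tightly grouped and the WT libraries were spread, and no pair overlapped (log2 difference -1.35, SE 0.30, adjusted p = 0.0042; without WT replicate 3 -1.18, adjusted p = 0.052). Its neighbour by identifier, Solyc06g059910, fell as well, with 3.07 ± 0.5002 RPKM in RNAi-SlCLV3 and 6.77 ± 2.05 RPKM in WT (adjusted p = 0.0038; 0.072 without WT replicate 3). In HC2 the TPS18 homolog stood at 66.2 ± 13.6 RPKM, against 109 ± 27.01 RPKM in fas, a difference that did not pass (adjusted p = 0.66). A homolog of fatty acid hydroxylase FAH1 (Solyc02g022900) was at 7.29, 5.42, 5.70 and 9.73 RPKM in RNAi-SlCLV3, against 15.5, 18.6, 12.3 and 16.5 RPKM in WT (log2 difference -1.07, SE 0.19, adjusted p = 9.4e-05). That gene had no overlap between the groups either, and its neighbour Solyc02g022890 fell by 0.72 on the log2 scale (adjusted p = 0.042). In HC2 both were called the other way, with the FAH1 homolog at 22.1 ± 2.67 RPKM in HC2 and 12.9 ± 1.16 RPKM in fas (adjusted p = 0.034) and Solyc02g022890 at 29.1 ± 3.68 RPKM in HC2 and 16.4 ± 3.47 RPKM in fas (adjusted p = 0.017). The neighbour's call was lost without any 1 of 6 libraries (adjusted p = 0.087 to 0.17), namely RNAi-SlCLV3 replicates 1, 3 and 4 and WT replicates 1, 2 and 3.

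The glucosyltransferase gene Solyc04g008330, a UGT73C7 homolog, was at 4.92, 5.99, 7.36 and 4.35 RPKM in RNAi-SlCLV3, against 9.79, 12.8, 12.3 and 11.6 RPKM in WT, and fell by 0.94 on the log2 scale (SE 0.18, adjusted p = 0.00055). The ITPK1 homolog (Solyc03g097150), an inositol phosphate kinase, averaged 2.04 ± 0.432 RPKM in RNAi-SlCLV3 and 3.98 ± 0.782 RPKM in WT (adjusted p = 0.0012). A gene annotated as xylanase inhibitor (Solyc01g079980) averaged 12.1 ± 1.98 RPKM in RNAi-SlCLV3 and 19.6 ± 1.39 RPKM in WT (adjusted p = 0.00012). All 3 had no overlap between the groups and kept their calls with any 1 library left out. In the 8 libraries alone the ITPK1 homolog lost its call, and Solyc01g079980 lost it there with the replicate block. Both were also called lower in HC2 than in fas at 6dpi (log2 differences -0.67 and -1.16, adjusted p = 0.0035 and 2.9e-11). The UGT73C7 homolog was not called there (-0.41, adjusted p = 0.71). A serpin-like gene of the viral response family (Solyc04g014520) stood at 1.13 ± 0.467 RPKM in RNAi-SlCLV3 and 2.26 ± 0.364 RPKM in WT on 6 to 49 reads. It was called (adjusted p = 0.020), but not at a pseudocount of 0.1 (adjusted p = 0.45), nor without RNAi-SlCLV3 replicate 1 (0.24) or WT replicate 3 (0.13) or 4 (0.059). An alcohol dehydrogenase gene (Solyc11g071290), a short way from SlCLV3 by identifier, was at 8.10, 5.70, 5.03 and 5.20 RPKM in RNAi-SlCLV3, against 9.98, 12.6, 11.2 and 10.8 RPKM in WT. The groups did not overlap (log2 difference -0.81, SE 0.22, adjusted p = 0.042), but the call needed every library except RNAi-SlCLV3 replicate 1 (adjusted p = 0.059 to 0.15 without any other).

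Some called genes stood near each other. By identifier order, 42 of the 183 higher genes (22.95%) had another higher gene within 5 places and 12 of the 74 lower genes (16.2%) another lower one, while 4.71% and 2.1% of all genes tested had such a neighbour. The higher genes formed 19 such groups and the lower genes 6. Of the 92 called genes that changed by at least 1 on the log2 scale either way, 28 were in such a group. The longest held 4 consecutive genes around the ankyrin repeat gene Solyc07g061750, which was at 44.6, 36.5, 34.3 and 37.1 RPKM in RNAi-SlCLV3, against 5.46, 5.81, 5.01 and 6.14 RPKM in WT. Next to it Solyc07g061760 was at 23.3 ± 2.89 RPKM in RNAi-SlCLV3 and 0.607 ± 0.347 RPKM in WT, and Solyc07g061770 at 11.99 ± 0.945 RPKM in RNAi-SlCLV3 and 0.465 ± 0.175 RPKM in WT. The first gene of the row, Solyc07g061740, changed least, with 6.01 ± 0.448 RPKM in RNAi-SlCLV3 and 3.36 ± 0.873 RPKM in WT (adjusted p = 0.0069; 0.090 without WT replicate 1). All 4 were also higher in HC2 than in fas at 6dpi. Near SlCLV3, Solyc11g071410 (17.4 ± 2.23 RPKM in RNAi-SlCLV3, 9.97 ± 1.21 RPKM in WT, adjusted p = 0.00042) and Solyc11g071430 (15.8 ± 1.86 RPKM in RNAi-SlCLV3, 9.86 ± 1.76 RPKM in WT, adjusted p = 0.029) were higher. The second of them lost its call without RNAi-SlCLV3 replicate 2 (adjusted p = 0.16) or 4 (0.085) or WT replicate 2 (0.085) or 3 (0.23). In 2 of the higher genes, Solyc03g042510 and Solyc00g011550, all 8 values were identical, so the counting may have shared reads of near-identical copies and each is uncertain.

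The genes with the largest changes carried no annotation. Solyc03g044840 was at 163, 186, 169 and 162 RPKM in RNAi-SlCLV3, against 3.09, 7.79, 4.38 and 3.64 RPKM in WT, and Solyc02g050270 at 36.8, 51.3, 33.4 and 33.3 RPKM in RNAi-SlCLV3, against 0.427, 1.57, 0.468 and 0.389 RPKM in WT. In both, WT replicate 2 was the highest of its group and still far below the hairpin libraries. Both were also called higher in HC2 than in fas at 6dpi (log2 differences 4.84 and 3.97, adjusted p = 8.4e-19 and 1.7e-24). Downward, Solyc06g008710 stood at 0.114, 0.736, 0.801 and 0.421 RPKM in RNAi-SlCLV3, against 3.37, 4.92, 4.88 and 4.49 RPKM in WT. In HC2 against fas it was called the other way (log2 difference 1.10, adjusted p = 2.2e-05). Solyc08g005670 stood at 3.94, 5.04, 4.63 and 8.64 RPKM in RNAi-SlCLV3, against 14.5, 9.18, 26.2 and 29.7 RPKM in WT (adjusted p = 0.0044; 0.057 without WT replicate 4). Its neighbour Solyc08g005710 averaged 15.7 ± 4.82 RPKM in RNAi-SlCLV3 and 43.2 ± 15.8 RPKM in WT and was called by a narrow margin (adjusted p = 0.049), which was lost without any 1 library other than RNAi-SlCLV3 replicate 3 (adjusted p = 0.059 to 0.31). Among the 183 higher genes, 11 were listed at 0 in all 4 WT libraries. The neighbours Solyc04g057790 and Solyc04g057800 were among them, with 2.52 to 6.88 RPKM and 1.61 to 4.48 RPKM in the RNAi-SlCLV3 libraries. They were listed at 0 in every library of lc, fas, lc/fas and WT at every stage, and in HC2 at 6dpi. With those zeros they could pass the filter of 1 RPKM in 4 libraries only through RNAi-SlCLV3 or the earlier stages of HC2. The zeros are therefore no separate evidence, and how many of all genes tested were at 0 in WT was not counted.

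HC2 allowed the called genes to be looked at in a second transformed line, set against fas, its background, with no library shared. Of the 183 higher genes, 53 (29.0%) were also called higher in HC2 than in fas at 6dpi, where 0.598% of all genes were, and 2 were called lower. Of the 74 lower genes, 10 (13.5%) were also called lower in HC2, where 0.204% of all genes were, and 3 were called higher. Of the 18 genes higher by at least 2 on the log2 scale in RNAi-SlCLV3, 16 were also called higher in HC2, whereas at a pseudocount of 0.1 it was 30 of 55. Over the 53 shared genes the median level was 6.01 RPKM in RNAi-SlCLV3 and 5.42 RPKM in HC2, and 0.699 RPKM in lc/fas, 0.718 RPKM in fas, 0.535 RPKM in lc and 0.77 RPKM in WT. These genes were chosen by their calls in the same libraries. Higher medians in RNAi-SlCLV3 and HC2 than in WT and fas therefore follow from the choice, in which lc and lc/fas had no part. The other 130 higher genes, set apart by the lack of a higher call in HC2, had a median of 3.91 RPKM in RNAi-SlCLV3 and 1.99 RPKM in HC2, against 1.52 RPKM in WT. SlWUS, SlCLE9, TKN2, AGL20, MBP20, the AN3 homolog, KLUH and SlSWEET1b were in that second group, with HC2 minus fas differences of -0.60 to 0.15 on the log2 scale (adjusted p of at least 0.68), and so was the PHB homolog among the lower genes that did not differ there (-0.04). What the 2 transformed lines share was not tested. Leaving out 1 library kept the share of higher genes also called in HC2 between 27.6% and 36.4%. Over the other fits it ran from 20.4% with the replicate block to 40.9% with only the 8 libraries compared.

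**Figure D4:**
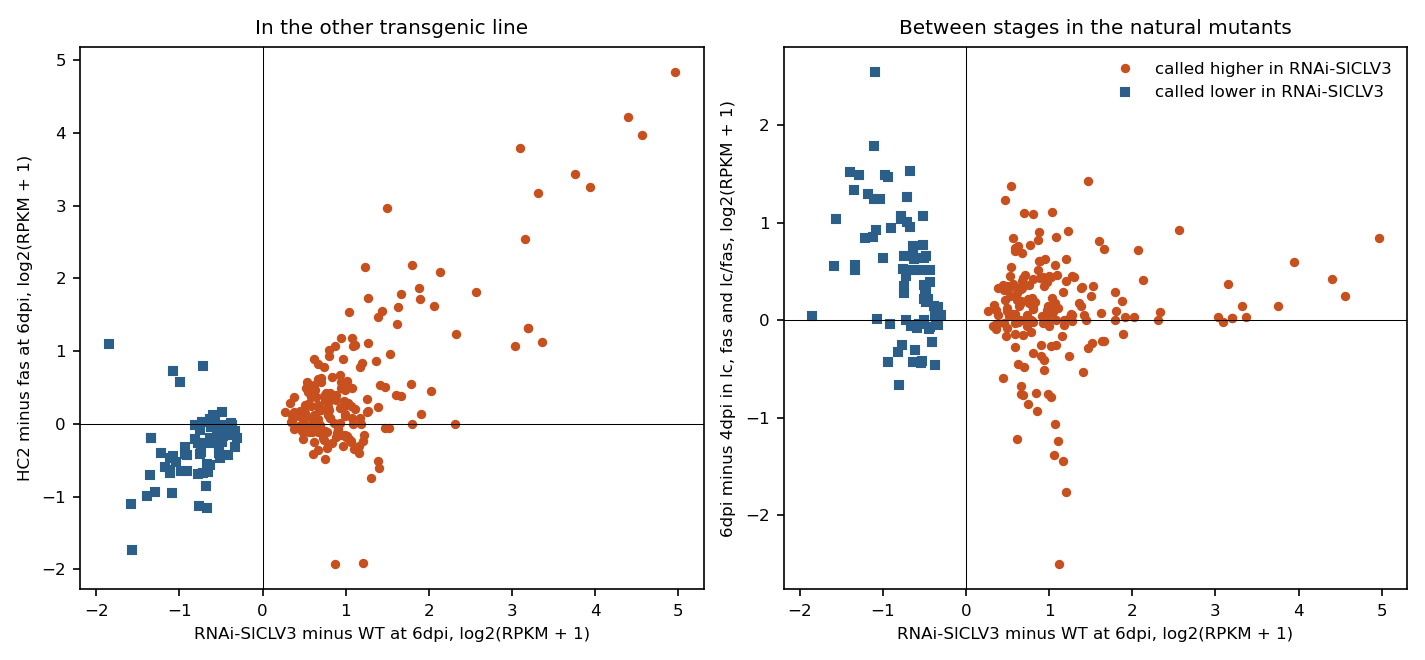
The 257 genes called at 6dpi are placed by their RNAi-SlCLV3 minus WT difference (x axis, log2) against the HC2 minus fas difference at 6dpi (left) and the 6dpi minus 4dpi difference in lc, fas and lc/fas (right), all as log2(RPKM + 1) and orange where higher and blue where lower in RNAi-SlCLV3. On the left 53 of the 183 higher genes were also called higher in HC2, and on the right the genes lower in RNAi-SlCLV3 lie mostly above 0, with a median of 0.51.

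The called genes differed in how they changed between 4dpi and 6dpi in lc, fas and lc/fas, none of which enters the comparison. The stage change of WT was not used here, so all values come from these mutants. Of the 74 genes lower in RNAi-SlCLV3, 48 (64.9%) were called higher at 6dpi than at 4dpi in those genotypes, where 17.5% of all genes tested were, and 10 (13.5%) were called lower, where 7.4% of all genes were. Their median stage difference was 0.51 on the log2 scale, beside 0.04 over all genes. The TPS18 homolog was one of them, with a stage difference of 1.34, and the ITPK1 homolog another, with 1.01. Solyc04g014520 (0.76) and the LTP2 homolog (0.32) also rose. The PHB homolog (-0.31), the UGT73C7 homolog (-0.43) and the alcohol dehydrogenase gene Solyc11g071290 (-0.66) were instead called lower at 6dpi than at 4dpi. The FAH1 homolog (0.01) and Solyc01g079980 (-0.06) were level. Among the 183 higher genes 65 (35.5%) rose and 27 (14.8%) fell between the stages, with a median of 0.10. The developmental genes named as higher were mostly on the falling side, as was the PHB homolog among the lower genes. SlWUS (-0.53), SlCLE9 (-1.25), TKN2 (-0.76), AGL20 (-0.45), MBP20 (-0.33), the AN3 homolog (-0.77) and KLUH (-0.59) were all called lower at 6dpi than at 4dpi in lc, fas and lc/fas, and SlSWEET1b was level (0.05). The share of the lower genes that rose between the stages was 53.3% to 75.0% with 1 library left out and 38.1% at a pseudocount of 0.1. It was 51.9% with the replicate block and 33.6% with the block at that pseudocount. With only the 8 libraries compared it was 40.9%, and with the 24 libraries at 6dpi 44.6%.

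The same genotypes were compared at the earlier stages. At 4dpi 2.7% of all genes were called higher in RNAi-SlCLV3 than in WT and 0.763% lower, and at the early stage 2.7% higher and 1.88% lower. Of the 183 genes higher at 6dpi, 147 (80.3%) were also called higher at 4dpi, which is 26.5% of the 555 higher there, and 120 (65.6%) at the early stage, which is 21.6% of 556. Of the 74 lower genes, 22 (29.7%) were also called lower at 4dpi (14.01% of 157) and 18 (24.3%) at the early stage (4.65% of 387). At neither stage were 28 of the higher and 42 of the lower genes called. The test of the difference itself, however, called 2 genes (0.00972%) whose effect at 6dpi differed from that at 4dpi, so genes called at 6dpi alone are not shown to be particular to that stage. Both were lower at 6dpi. Solyc06g068570 stood at 16.6, 4.37 and 1.06 RPKM at the early stage, 4dpi and 6dpi in RNAi-SlCLV3, against 0.660, 0.196 and 0.248 RPKM in WT, and Solyc10g085700 at 4.67, 2.7 and 1.17 RPKM in RNAi-SlCLV3, against 0, 0 and 0.123 RPKM in WT. Neither difference passed at a pseudocount of 0.1 (adjusted p = 1.00 and 0.97).

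**Figure D5:**
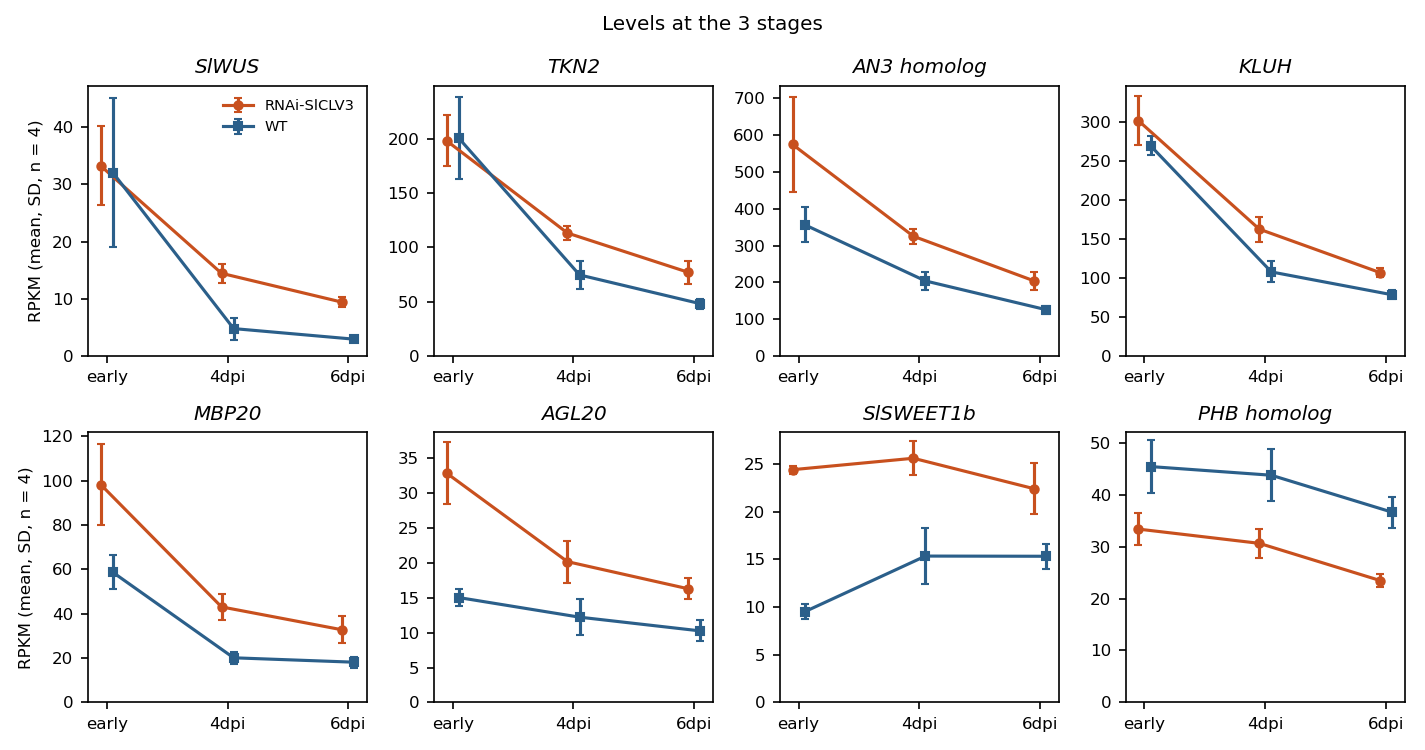
Mean level in RPKM with SD (n = 4) at the early stage, 4dpi and 6dpi in RNAi-SlCLV3 (orange circles) and WT (blue squares), on linear axes from 0. SlWUS and TKN2 start level at the early stage and separate at 4dpi and 6dpi, while the AN3 homolog, MBP20, AGL20 and SlSWEET1b are higher and the PHB homolog lower in RNAi-SlCLV3 at all 3 stages.

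Set against the early stage, the effect at 6dpi differed in 70 genes (0.34%), 27 upward and 43 downward, and in 199 with the replicate block. The named genes fell into groups by this pattern. SlWUS and TKN2 were alike in both genotypes at the early stage, with a ratio of means (RNAi-SlCLV3 over WT) of 1.04 for SlWUS and 0.988 for TKN2, and reached 3.02 and 3.21 at 4dpi and 6dpi for SlWUS and 1.52 and 1.6 for TKN2. The growth of the SlWUS effect was 1.29 on the log2 scale (SE 0.36), which did not pass without the block (adjusted p = 0.12) and passed with it (adjusted p = 0.011). The growth of the TKN2 effect was 0.67 on the log2 scale (SE 0.18), which likewise did not pass without the block (adjusted p = 0.079) and passed with it (adjusted p = 0.013). The AN3 homolog held nearly the same difference at all 3 stages, 0.67 at the early stage, 0.68 at 4dpi and 0.69 at 6dpi, each called. The PHB homolog was lower throughout, with differences of -0.43, -0.50 and -0.62, each called. KLUH differed by 0.16 at the early stage (adjusted p = 0.42) and was called at 4dpi with 0.59 and at 6dpi with 0.44. In the ankyrin repeat gene Solyc07g061750 the hairpin buds kept 44.3, 35.9 and 38.1 RPKM at the early stage, 4dpi and 6dpi while WT held 0.562, 2.31 and 5.60 RPKM, so the ratio narrowed to 6.81 at 6dpi. The alcohol dehydrogenase gene Solyc11g071290 changed direction, with 23.1, 16.7 and 6.01 RPKM in RNAi-SlCLV3 at the 3 stages in order, against 12.1, 22.1 and 11.2 RPKM in WT. It was the one gene of the 257 that was called in opposite directions at 6dpi and at the early stage.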

How the data were processed

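Strand-specific mRNA libraries of whole buds were sequenced by the authors, who mapped the single-end reads to the cultivated tomato genome and its ITAG genes using TopHat2 and Bowtie2 (versions not given in the sources used here). The deposited values are RPKM of sense-strand reads, one column for each library, and no other column was present. This scaling assumes equal total mRNA between libraries, and reads of a wild relative were mapped to a cultivated reference. Groups came from the sample titles.

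Whole reads were recovered from the deposited RPKM values to judge depth only (of 1074339 values under 500 reads, 98.5% were whole within 0.01 reads). RPKM are not counts, so tests used log2(RPKM + 1), which understates changes of low genes, and left out genes that did not reach 1 RPKM in 4 libraries. In limma 3.58.1 (trend option, R 4.3.3) 18 group means were fitted to the 72 libraries, so the 8 compared here share an estimate of spread with the rest. Contrasts were two-sided. Adjustment was by Benjamini-Hochberg over the 20577 genes tested, genes with an adjusted p below 0.05 were called, and every p in the text comes from limma. The code was tested on simulated data. Tables and figures used Python 3.11.15, numpy 2.4.6, pandas 2.3.3 and matplotlib 3.10.9.

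The main fit had no replicate block. Same-numbered RNAi-SlCLV3 and WT libraries deviated together (r = 0.12 to 0.55 across genes, against -0.39 to 0.17 for other pairs), so the replicate number was taken to pair them in the fits with a block. This rests on the data, since no source ties a number to a collection, and the ranges of r overlapped. The block was applied to all 72 libraries, although the pairing was examined only in the 8 compared here.

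The alternatives were a pseudocount of 0.1, a filter at a mean of 5 RPKM or none, the 8 libraries or the 24 at 6dpi alone, a replicate block, median-of-ratios and quantile scaling, and each library left out. By rule the text names SlCLV3, SlWUS, every called member of the developmental lists, up to 10 called genes per direction with an annotation and 2 without (at least 2 RPKM in a group, no overlap between groups), and called neighbours within 5 places by identifier. Other genes are named as examples of their lists. Names are those of the study or of textbooks. The comparison, members and lists were chosen with earlier results of these data known. Coordinates and sequences were not used here.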

Additional observations from a re-analysis of the deposited data

Results flagged for a closer look

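A single library stood far from the other 3 of its group in 6 of the 76 groups of 4 examined among the named genes, by Dixon's test at the 95% level, which flags about 1 group in 20 by chance. In RNAi-SlCLV3, replicate 1 was high in SlCLE9 (3.4 RPKM, the others 0.784 to 1.14), in Solyc06g054640 (3.13 RPKM, the others 1.6 to 1.64) and in Solyc07g061760 (27.6 RPKM, the others 21.6 to 22.5), and replicate 2 was low in the TPS18 homolog Solyc06g059930 (42.5 RPKM, the others 51.8 to 53.3). In WT, replicate 2 was high in Solyc02g050270 (1.57 RPKM, the others 0.389 to 0.468) and replicate 3 in Solyc08g005710 (66.8 RPKM, the others 33.8 to 36.6).

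The RNAi-SlCLV3 effect at 6dpi differed from that at the early stage in 4 named genes by the interaction test in limma. It was smaller at 6dpi by 2.38 on the log2 scale in the ankyrin repeat gene Solyc07g061750 (a difference of -2.38, adjusted p = 4.1e-08) and turned from higher to lower in the alcohol dehydrogenase gene Solyc11g071290 (-1.69, adjusted p = 0.0012), and both passed at a pseudocount of 0.1 as well. In SlCLE9 the difference of -1.97 (adjusted p = 0.00021) did not pass at a pseudocount of 0.1 (adjusted p = 0.93), and the ratio of mean RPKM was 11.8 at the early stage and 11.6 at 6dpi. In SlSWEET1b the difference was -0.76 (adjusted p = 0.046), and it missed the threshold at a pseudocount of 0.1 (adjusted p = 0.056).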

How the results depend on the processing

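The 257 calls at 6dpi became 464 with the replicate block, 115 with only the 8 libraries compared and 82 at a mean of at least 5 RPKM, where 15459 genes were tested. Other fits gave 182 to 379 calls, and leaving out 1 library 178 to 248. The 2 genes whose effect differed between 6dpi and 4dpi became 0 at a pseudocount of 0.1 by limma (694 were below 0.05 by the unadjusted p), 6 with the replicate block and 1 with the block and that pseudocount. The 70 genes for 6dpi against early became 199 with the block and 161 with the block and a pseudocount of 0.1. Among the 38 named genes none of the 37 called at 6dpi changed direction under any alternative, whereas the sign of SlCLV3, which was not called, varied with the setting (0.01 as reported, -0.10 at a pseudocount of 0.1, and between -0.22 and 0.17 when 1 library was left out). The block in all 72 libraries kept the 37 calls among them, as did both scalings, while a pseudocount of 0.1 lost 4. The 8 libraries alone lost 12 calls, and 12 with the block, of which SlCLE9, the OBP1 homolog, the ITPK1 homolog, Solyc02g027080, Solyc04g014520, Solyc06g059910, Solyc07g061740 and Solyc11g071430 were lost both ways. SlSWEET1b, the LTP2 homolog, Solyc02g022890 and Solyc08g005670 were lost without the block, and TKN2, AGL20, Solyc01g079980 and Solyc11g071290 with it. Depth limits genes under about 1 RPKM, SlCLV3 and SlCLE9 among them, most of all in RNAi-SlCLV3 replicate 3.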
